A study of Arabidopsis thaliana with 8 samples.

Results

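The miRNAs described here are those of Arabidopsis whose family numbers run from miR770 to miR870. They are called young without a check of each family's age. They were chosen by name alone, from 4 tables of read counts on mature miRNAs, leaving out the nutrient-regulated families miR778, miR827 and miR857. The rule took any letter and either arm of a hairpin, and gave 98 entries of 57 families among the 427 listed miRNAs. It used no measured value.

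The tables come from inflorescences of janus-2 and of Col-0, the wild-type accession. The janus-2 allele is a small deletion made with CRISPR/CAS9 in JANUS, which encodes the homolog of the splicing factor SF3B4. It is hypomorphic, was kept as 1 line backcrossed to Col-0, and leaves plants entirely sterile. Both genotypes grew without treatment at 22°C under 16 h of light and 8 h of dark, and each gave 2 small RNA and 2 mRNA libraries described as biological replicates. The labels write the mutant only as janus.

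A plant miRNA is cut from a hairpin transcript by a Dicer protein, usually DCL1, methylated by HEN1 and loaded into an Argonaute protein, which then cuts or silences mRNAs that pair with it. Old families are shared by land plants and mostly act on transcription factors. Families with numbers in the range described here are mostly found only in Arabidopsis and its relatives of the Brassicaceae. They tend to come from single loci and to be scarce, and many of their known targets are F-box proteins, lectins, DNA methyltransferases and other genes outside development. Some of their hairpins are long and are cut by DCL4 instead of DCL1, as is known for miR822 and miR839.

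The small RNA libraries held between 1950664 and 2160372 counts on the 427 miRNAs, and 3 counts in 1 library corresponded to between 1.28 and 1.65 CPM, in which counts are scaled to the miRNA total of the library and its TMM factor. The mRNA libraries held between 56360882 and 65578130 counts on genes, and a gene was called at an edgeR adjusted p of 0.05 or less together with a fold of 1.5 or more. JANUS had 1158 and 1141 counts in the janus-2 mRNA libraries, against 3107 and 3579 in Col-0, a log2 fold change of -1.53 (SE 0.07, edgeR adjusted p = 4.26e-214). The summed level of 14 pollen markers was 22.4 and 23.8 CPM in janus-2, against 3787 and 3788 CPM in Col-0. All 13 of these that were tested fell, BUPS1 (AT4G39110) was at 0 in every library, and the sperm histone gene MGH3 was at 0 in both janus-2 libraries. The 12 tapetum markers all fell, with sums of 96.2 and 92.7 CPM in janus-2, against 707 and 691 CPM in Col-0. Of 6 flower markers AP3 and PI fell, and of 4 ovule markers INO fell. The others were not called, among them AP1 (log2 fold change -0.46), AG (0.13), STK (-0.48), BEL1 (0.35) and ANT (-0.19), which passed the adjusted p but not the fold threshold. Fewer cells of a type and less RNA per cell cannot be told apart in these bulk samples, and the part of lost pollen and tapetum in each miRNA difference below was not tested.

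Young miRNAs fell and rose in equal numbers in janus-2, and large changes in both directions were common. Of the 98 entries, 64 passed the filter on low counts, and 17 of these (26.6%) were lower and 17 (26.6%) higher in janus-2 by edgeR's quasi-likelihood test, called where the adjusted p did not exceed 0.05. Over all 304 tested miRNAs 14.1% were lower and 18.1% higher, or 32.2% in either direction. The other 240 tested miRNAs had 26 lower and 38 higher entries (26.7% in either direction), against 53.1% for the young miRNAs. The balance of falls and rises depended on the scaling of the libraries: TMM factors were 0.943 and 0.933 in janus-2, against 1.08 and 1.05 in Col-0, and with all aligned reads as library size 24 young miRNAs were lower and 14 higher. The median log2 fold change over the 304 tested miRNAs was -0.23 with that scaling and 0.11 with TMM, a shift that applies to every entry, and that over the young miRNAs was -0.59 and -0.22.

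The size of the changes set the young miRNAs beside the others more plainly than the balance did. The median absolute log2 fold change was 1.11 over the 64 young miRNAs, beside 0.51 over the 240 others. Called changes of at least 4-fold were seen in 23 young miRNAs (35.9%), 14 lower and 9 higher, and in 33 of the others (13.8%), 12 lower and 21 higher. The others are not only old families, and include miR778 and recently evolved miRNAs with 4-digit numbers. Their most negative values were those of miR2934-5p (-4.45), miR5017-5p (-4.42), miR5015 (-4.40) and miR778 (-4.28). Among entries with a mean of at least 100 CPM, 11 of 16 young miRNAs were called (8 lower and 3 higher), beside 30 of 102 others (12 lower and 18 higher). These counts are descriptions without a test of the difference, since entries with shared reads are not independent. Both janus-2 libraries lay below both Col-0 libraries for 29 of the 64 entries and above them for 24, beside 29.3% and 38.5% of all tested miRNAs.

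**Figure D1:**
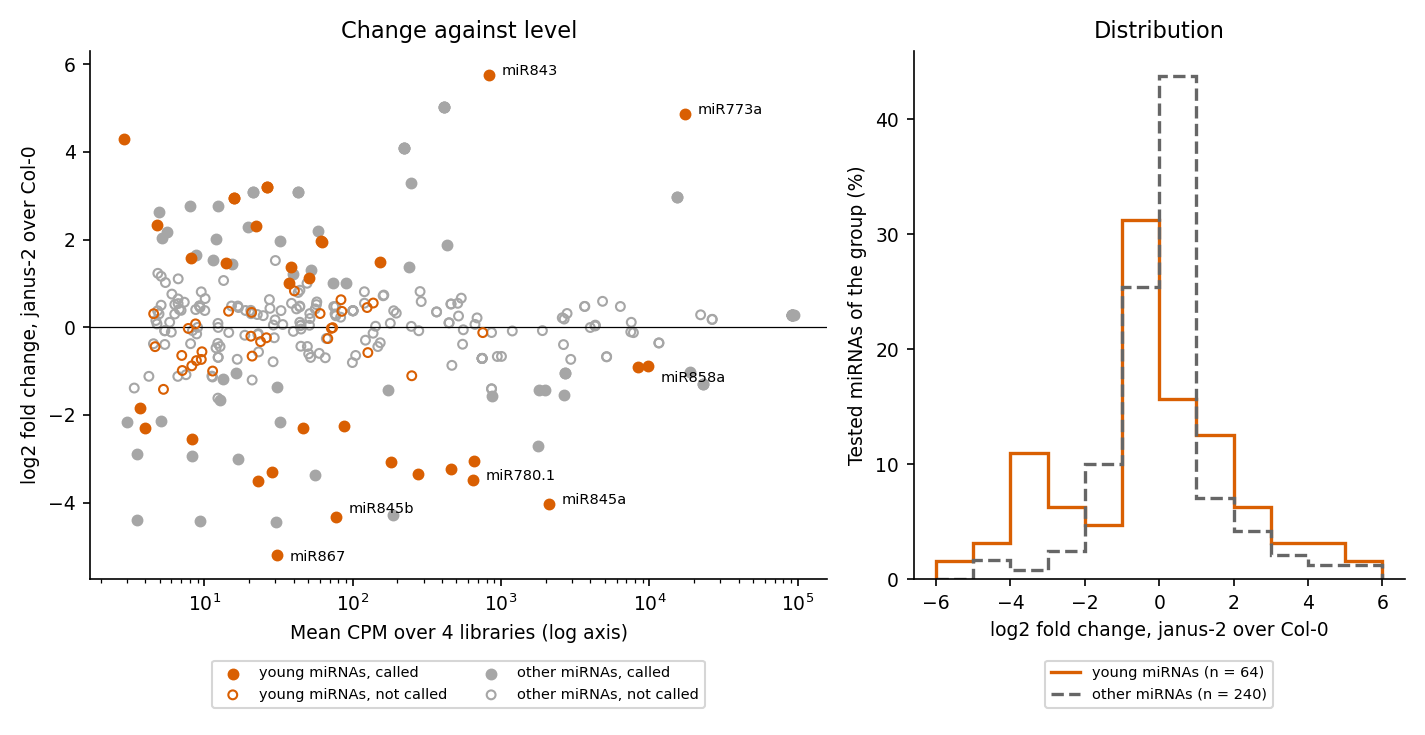
Left, log2 fold change (janus-2 over Col-0) against mean CPM on a log axis for the 64 tested young miRNAs and the 240 other tested miRNAs, with called entries filled. Right, the percentage of each group in bins 1 log2 unit wide: the young miRNAs reach from -5.20 to 5.76 and hold a larger share below -2.

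Called entries of 1 family went the same way. A fall was called in 13 families and a rise in 11, and 0 families had both. Most of these families had only 1 called entry, however, and so could not have had both. Of 15 families with more than 1 tested entry, 13 had all fitted log2 fold changes on 1 side of 0, and in 7 every tested entry was called. Arms of 1 hairpin and near-identical entries share a source or reads, so these are not separate observations.

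The young miRNAs took 4.46% (95% exact interval 4.43% to 4.48%) and 5.25% (5.22% to 5.28%) of all miRNA counts in janus-2, against 4.10% (4.07% to 4.12%) and 3.56% (3.54% to 3.59%) in Col-0. The intervals cover counting error only. Most of this share belonged to miR773a, miR858a and miR858b. Without these 3 entries the share was 0.527% and 0.456% in janus-2, against 1.13% and 1.23% in Col-0. The rest of the young miRNAs thus took a smaller share of the counts in both janus-2 libraries, while the whole group took a larger one.

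The most abundant young miRNA in janus-2 was miR773a, for which the DNA methyltransferase gene DMT2 is a reported target. It had 31570 and 35920 CPM in janus-2, against 1272 and 1023 CPM in Col-0. It was the 8th most abundant of the 427 miRNAs in both janus-2 libraries, against rank 48 and 57 in Col-0, and held 2.98% and 3.35% of the miRNA counts in janus-2, against 0.138% and 0.107% in Col-0. The log2 fold change was 4.88 (SE 0.33, edgeR adjusted p = 5.59e-07), and it lay between 4.69 and 5.04 when each library was left out. Its relative miR773b-3p was scarce but changed the same way, with 11 and 10 counts in janus-2, against 1 and 0 counts in Col-0. Summed over libraries that is a 24.7-fold ratio with a 95% counting interval from 3.98 to 1023 (fitted log2 fold change 4.30, edgeR adjusted p = 0.00415, and 6.47 without Col-0 replicate 1 or 3.51 without Col-0 replicate 2). The other arm, miR773b-5p, had 5 and 4 counts in janus-2, against 0 and 0 in Col-0. It was not tested, and was at least 1.76-fold higher against a floor of 3 counts per library.

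The largest fitted rise was that of miR843, a miRNA reported to pair with an F-box mRNA. It had 1603 and 1654 CPM in janus-2, against 28.2 and 31.7 CPM in Col-0. The log2 fold change was 5.76 (SE 0.34, edgeR adjusted p = 1.51e-05), with the replicates of each genotype close together. Its rank among the 427 miRNAs was 42 and 39 in janus-2, against 174 and 167 in Col-0. In the mRNA libraries its precursor gene MIR843 and its reported target AT3G13830 were below the filter on low counts and were not tested.

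All 5 entries of miR854 rose. This family lies in repeats, and RefSeq places each of its 5 genes inside an annotated pseudogene. The entries miR854a and miR854c had equal counts in every library, as did miR854d and miR854e, so the 5 entries carry at most 3 sets of reads. For miR854a the level was 49.9 and 45.6 CPM in janus-2, against 4.28 and 6.06 CPM in Col-0 (log2 fold change 3.20, SE 0.54, edgeR adjusted p = 0.00017). For miR854d it was 30.7 and 25.3 CPM in janus-2, against 2.996 and 4.196 CPM in Col-0 (log2 fold change 2.95). The level of miR854b was 36.8 and 36.8 CPM in janus-2, against 5.14 and 9.79 CPM in Col-0 (log2 fold change 2.30). Both janus-2 libraries lay above both Col-0 libraries in each of these entries, beside 38.5% of all tested miRNAs. The entries were called on these same libraries.

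The miR781 entries rose by a size that 1 library decided. Their genes overlap in the annotation, and the counts of miR781a and miR781b differed by at most 3.16% in any library, so they are close to 1 measurement. The level of miR781b was 95.2 and 100 CPM in janus-2, against 39.4 and 9.79 CPM in Col-0 (log2 fold change 1.98, SE 0.63, edgeR adjusted p = 0.0187). The Col-0 replicates differed about as much as the genotypes did. Leaving out Col-0 replicate 2 gave a log2 fold change of 1.31 for miR781b and 1.27 for miR781a, and leaving out Col-0 replicate 1 gave 3.31 and 3.32.

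Among young miRNAs with targets of known function, miR823 rose. It guides cleavage of the mRNA of CMT3, the methyltransferase of CHG sites. The level of miR823 was 249 and 203 CPM in janus-2, against 63.3 and 97.4 CPM in Col-0 (log2 fold change 1.49, SE 0.39, edgeR adjusted p = 0.0129). With miR773a and miR843 it was 1 of the 3 young miRNAs above 100 CPM that rose.

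The hairpin of miR838 lies in an intron of DCL1, the Dicer that makes most miRNAs. The level of miR838 was 21.7 and 19.2 CPM in janus-2, against 5.56 and 9.32 CPM in Col-0 (log2 fold change 1.46, SE 0.61). The call, at an edgeR adjusted p of 0.018, was lost without janus-2 replicate 1 (1.34, adjusted p = 0.0592) and without Col-0 replicate 1 (1.13, adjusted p = 0.0602).

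Rises of smaller size or at low counts made up the rest. The level of miR852 was 56.4 and 53.9 CPM in janus-2, against 23.1 and 19.6 CPM in Col-0 (log2 fold change 1.36, edgeR adjusted p = 0.00714). The level of miR860 was 66.0 and 73.6 CPM in janus-2, against 33.0 and 31.2 CPM in Col-0 (1.12), a call lost without janus-2 replicate 2 (0.95, adjusted p = 0.121). The level of miR850 was 55.9 and 44.0 CPM in janus-2, against 23.5 and 26.1 CPM in Col-0 (1.01). Its adjusted p was 0.031 by edgeR, and 0.256 without janus-2 replicate 1, 0.0701 without janus-2 replicate 2 and 0.058 without Col-0 replicate 1, so that 3 of the 4 libraries each decided its call. With all aligned reads as library size the calls of miR850 and miR860 were lost as well (log2 fold changes of 0.66 and 0.76).

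The miRNAs miR837-5p and miR826a rested on few reads. For miR837-5p there were 21 and 25 counts in janus-2, against 10 and 8 in Col-0 (log2 fold change 1.58, and 1.30 with an edgeR adjusted p of 0.13 without janus-2 replicate 2). For miR826a, reported to act on the glucosinolate gene AOP2, there were 19 and 12 counts in janus-2, against 6 and 1 in Col-0. Its log2 fold change was 2.34 (edgeR adjusted p = 0.0209). Leaving out Col-0 replicate 1 gave 3.95, and leaving out Col-0 replicate 2 gave 1.64 (adjusted p = 0.0595). Its overlapping relative miR826b, which was not tested, had 10 and 8 counts in janus-2, against 1 and 2 in Col-0, a ratio of 7.07 with a counting interval from 2.06 to 37.4. AOP2 itself was not analysed here.

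**Figure D2:**
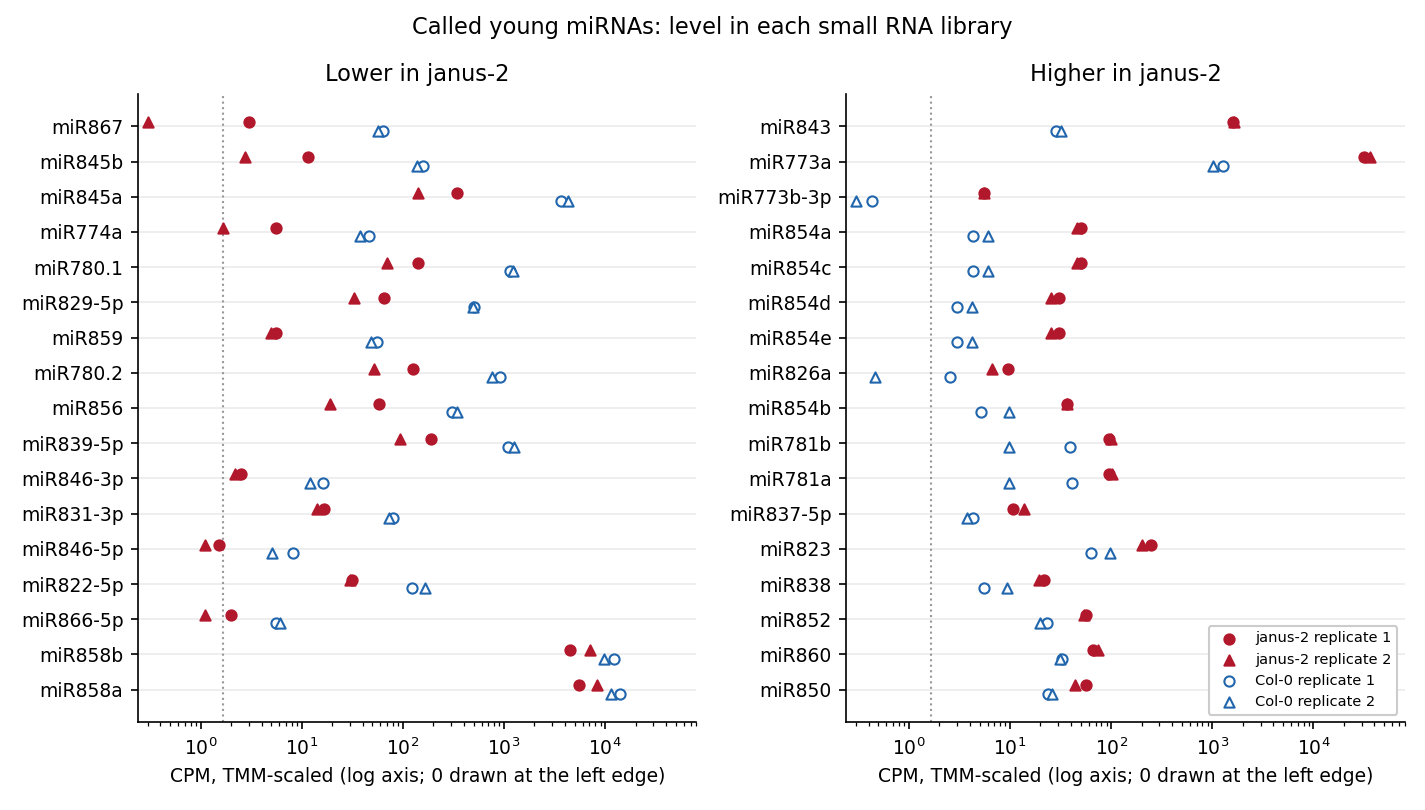
CPM of the 17 lower (left) and 17 higher (right) young miRNAs in each of the 4 small RNA libraries, on a log axis, with janus-2 filled and drawn above Col-0 (open), circles for replicate 1 and triangles for replicate 2. The dotted line is the largest level that 3 counts give in a library, 1.65 CPM. The janus-2 and Col-0 libraries do not overlap in any of the 34 entries, which were selected by the test on these same libraries. Over all tested miRNAs both janus-2 libraries lay below both Col-0 libraries in 29.3% and above them in 38.5%.

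Among the falls, miR845a had the highest level in Col-0 of those of at least 4-fold. The miR845 family pairs with the sites where tRNA primes reverse transcription of retrotransposons, and is known from Arabidopsis pollen. The level of miR845a was 343 and 141 CPM in janus-2, against 3648 and 4249 CPM in Col-0. The log2 fold change was -4.03 (SE 0.49, edgeR adjusted p = 0.000193), and the rank among all miRNAs was 82 and 99 in janus-2, against 32 and 24 in Col-0. Its neighbour miR845b, whose gene lies 1 annotated gene away, had 11.6 and 2.75 CPM in janus-2, against 158 and 138 CPM in Col-0 (log2 fold change -4.33, SE 0.59, edgeR adjusted p = 0.000324). Without janus-2 replicate 1 the log2 fold changes of miR845a and miR845b were -4.84 and -5.76. The counts of miR845a were 29.6 and 51.2 times those of miR845b in janus-2, against 23.2 and 30.8 times in Col-0.

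Both entries of miR780, for which the cation exchanger gene CHX18 is a reported target, fell. The level of miR780.1 was 142 and 70.3 CPM in janus-2, against 1154 and 1227 CPM in Col-0 (log2 fold change -3.49, SE 0.44). The level of miR780.2, cut from the same hairpin, was 126 and 51.6 CPM in janus-2, against 920 and 754 CPM in Col-0 (log2 fold change -3.23, SE 0.50). The ratio of the first to the second was 1.12 and 1.36 in janus-2, against 1.26 and 1.63 in Col-0, and so stayed within the spread between replicates. Without janus-2 replicate 1 the log2 fold changes were -4.12 and -4.06.

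The entries miR839-5p and miR822-5p, from hairpins known to be cut by DCL4, also fell. The level of miR839-5p was 191 and 93.4 CPM in janus-2, against 1090 and 1266 CPM in Col-0 (log2 fold change -3.05, SE 0.45, edgeR adjusted p = 0.000697, and -3.69 without janus-2 replicate 1). The level of miR822-5p was 31.2 and 29.7 CPM in janus-2, against 123 and 166 CPM in Col-0 (log2 fold change -2.25, SE 0.39, edgeR adjusted p = 0.000829). Both genes also gave reads in the mRNA libraries, described with the precursors. The other arm, miR822-3p, had 8 and 3 counts in janus-2, against 21 and 14 in Col-0, and did not pass the test (log2 fold change -1.42, edgeR adjusted p = 0.0754).

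Other abundant young miRNAs fell by a like amount. The level of miR829-5p was 64.5 and 33.0 CPM in janus-2, against 509 and 490 CPM in Col-0 (log2 fold change -3.35, SE 0.44, edgeR adjusted p = 0.000386). Its other listed products were near the limit of detection in janus-2. There miR829-3p.1 had 1 and 0 counts, against 9 and 9 in Col-0, a ratio of Col-0 over janus-2 of 15.3 with a counting interval from 2.41 to 637. With 0 and 0 counts in janus-2, against 10 and 13 in Col-0, miR829-3p.2 was at least 3.27-fold lower against 3 counts per library. Neither was tested.

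The level of miR856 was 57.4 and 19.2 CPM in janus-2, against 303 and 344 CPM in Col-0 (log2 fold change -3.07, SE 0.54, edgeR adjusted p = 0.00151). The level of miR831-3p was 16.6 and 14.3 CPM in janus-2, against 80.5 and 73.2 CPM in Col-0 (log2 fold change -2.31, SE 0.44, edgeR adjusted p = 0.000426). The arm miR831-5p had 0 and 0 counts in janus-2, against 3 and 3 in Col-0, too few to compare. Without janus-2 replicate 1 the log2 fold change of miR829-5p was -3.96 and that of miR856 was -4.10, while that of miR831-3p was -2.46.

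The most negative fitted value belonged to miR867. It had 6 and 0 counts in janus-2, against 148 and 121 counts in Col-0 (log2 fold change -5.20, SE 0.78, edgeR adjusted p = 0.000323). Because the janus-2 counts are so few, the fitted size is uncertain, and it moved to -4.37 without janus-2 replicate 2 and to -9.99 without janus-2 replicate 1.

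MIR859 and MIR774a lie side by side, and both miRNAs are reported to act on F-box mRNAs. The level of miR859 was 5.54 and 4.95 CPM in janus-2, against 55.6 and 48.5 CPM in Col-0 (log2 fold change -3.30, SE 0.55, edgeR adjusted p = 0.00017). The level of miR774a was 5.54 and 1.65 CPM in janus-2, against 46.7 and 37.8 CPM in Col-0 (log2 fold change -3.51, SE 0.66, edgeR adjusted p = 0.000423, and -4.68 without janus-2 replicate 1). Both arms of the adjoining miR774b were at 0 in all 4 libraries.

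MIR842 and MIR846 are also neighbours, and their miRNAs are reported to act on lectin mRNAs of the jacalin group. The level of miR846-3p was 2.52 and 2.20 CPM in janus-2, against 16.3 and 12.1 CPM in Col-0 (log2 fold change -2.56, edgeR adjusted p = 0.00233). The arm miR846-5p had 3 and 2 counts in janus-2, against 19 and 11 in Col-0 (log2 fold change -2.29, edgeR adjusted p = 0.0164). That call was lost without Col-0 replicate 1 (-1.91, adjusted p = 0.0556). With 1 and 1 counts in janus-2, against 6 and 7 in Col-0, miR842 was not tested, and its ratio of Col-0 over janus-2 was 5.52 with a counting interval from 1.25 to 50.4.

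MIR850 and MIR863 are neighbours too. There miR850 rose, and miR863-5p had 17.6 and 14.8 CPM in janus-2, against 24.8 and 26.6 CPM in Col-0 (log2 fold change -0.66, edgeR adjusted p = 0.147). The difference between these neighbours was not tested. The arm miR863-3p had 3 and 2 counts in janus-2, against 6 and 6 in Col-0, and was not tested. At the locus of MIR771 and MIR851, miR771 had 134 and 193 CPM in janus-2, against 106 and 116 CPM in Col-0 (log2 fold change 0.55, edgeR adjusted p = 0.25). There miR851-5p had 160 and 157 CPM in janus-2, against 218 and 465 CPM in Col-0 (log2 fold change -1.11, edgeR adjusted p = 0.0811). The Col-0 replicates of miR851-5p differed more from each other than the janus-2 libraries did from the lower of them, and the value turned on them. Leaving out Col-0 replicate 1 gave a log2 fold change of -1.55 (adjusted p = 0.00147), and leaving out Col-0 replicate 2 gave -0.46 (adjusted p = 0.415). The arm miR851-3p had 16.6 and 25.8 CPM in janus-2, against 25.7 and 27.5 CPM in Col-0 (log2 fold change -0.33, not called).

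The most abundant young miRNAs in Col-0, miR858a and miR858b, fell least among those called. They act on mRNAs of MYB transcription factors that drive flavonol synthesis. The counts of miR858a were 1.23 and 1.17 times those of miR858b in janus-2, against 1.16 and 1.17 times in Col-0. The pair may share reads and is not taken as separate observations. The level of miR858a was 5559 and 8345 CPM in janus-2, against 14050 and 11420 CPM in Col-0 (log2 fold change -0.87, SE 0.37, edgeR adjusted p = 0.0183). The level of miR858b was 4512 and 7145 CPM in janus-2, against 12120 and 9787 CPM in Col-0 (log2 fold change -0.91, SE 0.38, edgeR adjusted p = 0.0209). Both calls rested on janus-2 replicate 1, without which the log2 fold changes were -0.66 and -0.66 (adjusted p = 0.151 and 0.164). At the other end of abundance, miR866-5p had 4 and 2 counts in janus-2, against 13 and 13 in Col-0 (log2 fold change -1.84, edgeR adjusted p = 0.0339). Its call was lost without janus-2 replicate 1 (-2.38, adjusted p = 0.0507), janus-2 replicate 2 (-1.58, adjusted p = 0.175) or Col-0 replicate 2 (-1.78, adjusted p = 0.0791). The arm miR866-3p had 5 and 3 counts in janus-2, against 10 and 14 in Col-0, and was not tested.

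The large falls were deeper in janus-2 replicate 2. All 14 young miRNAs that fell by at least 2 on the log2 scale were lower in janus-2 replicate 2 than in janus-2 replicate 1. The median ratio of replicate 2 to replicate 1 was 0.492 in janus-2, with a range from 0 to 0.95, against a median of 0.900 in Col-0, where 9 of 14 were lower in replicate 2. The ratio in janus-2 had a median of 0.954 for the 17 young miRNAs that rose, of which 10 were lower in janus-2 replicate 2. Of the 30 tested young miRNAs not called, 22 were lower there, with a median ratio of 0.875. The lean was thus not confined to the large falls, which were picked by a fold change that uses these same libraries. Among the 176 other miRNAs not called, 81 were lower in janus-2 replicate 2, with a median ratio of 1.02. Among the 12 other miRNAs that fell by at least 2 on the log2 scale, 9 were lower in janus-2 replicate 2, with a median ratio of 0.605. The pair miR858a and miR858b went the other way and was higher in janus-2 replicate 2. The summed pollen and tapetum markers differed little between the janus-2 mRNA libraries, which are separate libraries from the small RNA ones and share only their replicate numbers with them.

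**Figure D3:**
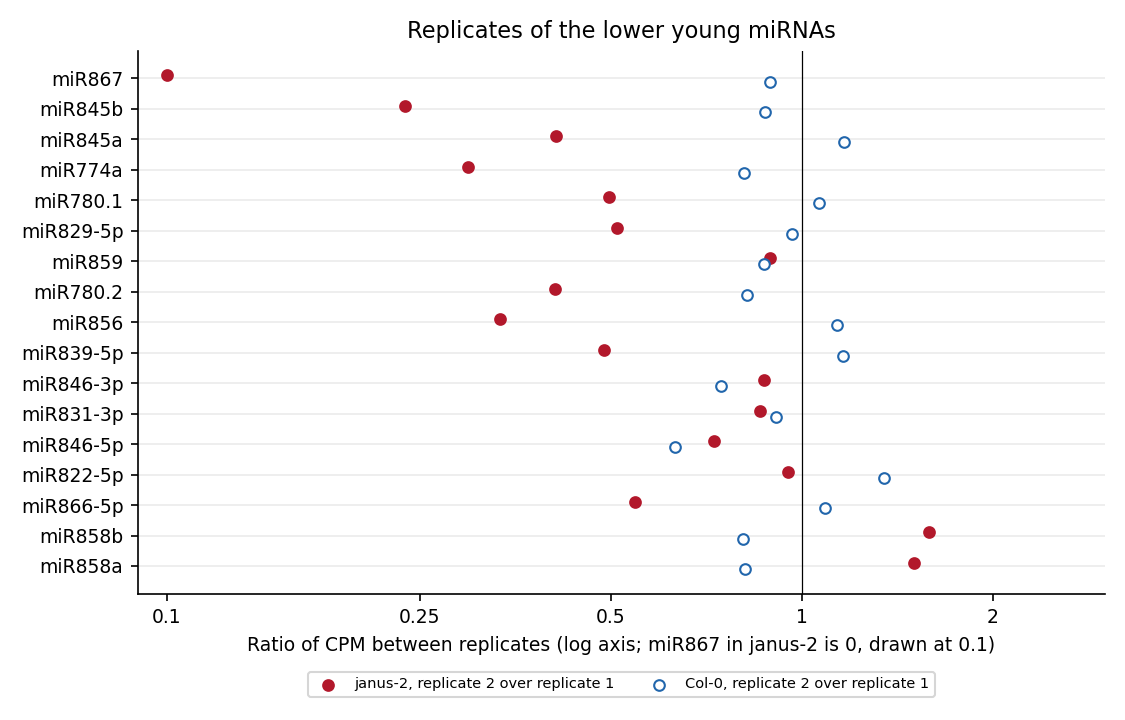
Ratio of CPM in replicate 2 to replicate 1 for the 17 young miRNAs that fell, on a log axis, with janus-2 filled and drawn above Col-0 (open), ordered by fold change with the most negative at the top. In janus-2 the ratio is below 1 for 15 of 17, with miR867 at 0 drawn at 0.1 and only miR858a and miR858b above 1, while in Col-0 the ratios lie on both sides of 1.

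Of the 30 tested young miRNAs that were not called, 5 had a mean of at least 100 CPM. The level of miR775 was 760 and 681 CPM in janus-2, against 635 and 934 CPM in Col-0, so that the genotypes overlapped (log2 fold change -0.12, SE 0.35, edgeR adjusted p = 0.836). The arms of miR824, which acts on the MADS-box gene AGL16, leaned in opposite directions. For miR824-5p the level was 147 and 142 CPM in janus-2, against 135 and 76.5 CPM in Col-0 (log2 fold change 0.45, edgeR adjusted p = 0.403). For miR824-3p it was 108 and 94.5 CPM in janus-2, against 147 and 156 CPM in Col-0 (log2 fold change -0.58, edgeR adjusted p = 0.20). The ratio of the first arm to the second was 1.36 and 1.5 in janus-2, against 0.918 and 0.490 in Col-0, which did not overlap but was not tested. The remaining 2 of the 5 are miR771 and miR851-5p. The 34 entries too low for the test had at most 23 counts in any library, and 5 of them had none anywhere. Both janus-2 libraries lay below both Col-0 libraries for 14 of these 34 (41.2%) and above them for 4 (11.8%), beside 21.3% and 14.6% of the 89 other untested miRNAs.

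The mRNA libraries allow the reported targets of the young miRNAs to be set beside them. Of 26 genes listed as reported targets, 20 were tested, and 5 of these were lower and 4 higher in janus-2, while 11 were not called. DCL1 is among the 11, listed for holding the hairpin of miR838 and not as a target shown to pair with it. Over the 22990 tested genes 27.2% were lower and 18.5% higher, or 45.7% in either direction, so the targets' shares of calls are near the background. Both janus-2 libraries lay below both Col-0 libraries for 11 of the 20 targets and above them for 7, beside 46.6% and 44.2% of all tested genes. Their median log2 fold change was -0.20. Without the fold threshold 10 targets were lower and 7 higher, beside 42.5% and 40.6% of all tested genes, which again is near the background.

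Of targets whose miRNA fell, AT3G19890, the reported target of miR774, fell too. It had 1 and 1 counts in janus-2, against 71 and 91 in Col-0, a ratio of Col-0 over janus-2 of 80.5 with a counting interval from 21.9 to 670 (edgeR adjusted p = 1.57e-23). AT5G49850, a reported target of miR842 and miR846, had 33 and 27 counts in janus-2, against 126 and 131 in Col-0 (log2 fold change -2.09, SE 0.36, edgeR adjusted p = 1.48e-14). AT5G02350, reported for miR822, had 11 and 13 counts in janus-2, against 48 and 60 in Col-0 (log2 fold change -2.15, SE 0.55, edgeR adjusted p = 3.96e-07). In each of these 3 pairs the miRNA and its reported target were lower together. CHX18, reported for miR780, had 423 and 377 counts in janus-2, against 336 and 437 in Col-0 (log2 fold change 0.06, edgeR adjusted p = 0.608), and overlapped between the genotypes. AT3G49510, reported for miR859, had a log2 fold change of -0.42, below the fold threshold, and passed without janus-2 replicate 1 (-0.74, adjusted p = 0.00267).

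The flavonol regulators targeted by miR858 were not called. The log2 fold change was 0.52 for MYB11, -0.48 for MYB12 and -0.09 for MYB111. MYB11 passed both thresholds without janus-2 replicate 2 (0.67, adjusted p = 1.02e-06). The first 2 of these genes passed the adjusted p but not the fold threshold, in opposite directions.

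Of targets whose miRNA rose, CMT3 fell. It had 2703 and 2614 counts in janus-2, against 4972 and 5740 in Col-0 (log2 fold change -1.002, SE 0.05, edgeR adjusted p = 4.66e-165), beside the rise of miR823. DMT2 had 130 and 146 counts in janus-2, against 118 and 146 in Col-0 (log2 fold change 0.08, SE 0.26, edgeR adjusted p = 0.704), beside the rise of miR773a of 4.88. DMT2 overlapped between the genotypes, and its fitted value was -0.06 without janus-2 replicate 2. DCL1 is listed here with miR838 because its gene holds that hairpin, and pairing of miR838 with its mRNA was not examined. DCL1 had 59.2 and 60.7 CPM in janus-2, against 76.1 and 79.2 CPM in Col-0 (log2 fold change -0.37), below the fold threshold.

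Other targets belong to miRNAs that were not called or not tested. AGL16, the target of miR824, rose, with 2735 and 2582 counts in janus-2, against 978 and 1114 in Col-0 (log2 fold change 1.35, SE 0.07, edgeR adjusted p = 1.43e-143). AT1G53290, reported for miR775, had a log2 fold change of -0.31 and WHY3, reported for miR840, one of 0.24. Beside WHY3, miR840-5p had a log2 fold change of 0.63 (edgeR adjusted p = 0.171) and miR840-3p one of -0.20. AT5G51270, reported for miR844, fell, with 78 and 67 counts in janus-2, against 176 and 251 in Col-0 (log2 fold change -1.54, edgeR adjusted p = 8.46e-16), while miR844-3p had 89.2 and 56.6 CPM in janus-2, against 67.2 and 79.7 CPM in Col-0, and overlapped. SE, a partner of DCL1 reported for miR863, had a log2 fold change of 0.56 and passed the fold threshold without janus-2 replicate 2 (0.59). IAA28, reported for miR847, had one of -0.38, with 10 and 4 counts of miR847 in janus-2, against 3 and 10 in Col-0.

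The anthocyanin regulators tied to miR828 rose. This miRNA cuts the non-coding TAS4 transcript, whose small RNAs act on the MYB genes PAP1 (MYB75) and MYB90. The miRNA itself was barely detected, with 2 and 5 counts in janus-2, against 2 and 2 in Col-0. MYB90 had 806 and 720 counts in janus-2, against 17 and 27 in Col-0 (log2 fold change 5.12, SE 0.26, edgeR adjusted p = 9.33e-197). PAP1 had 940 and 970 counts in janus-2, against 251 and 272 in Col-0 (log2 fold change 1.88, SE 0.13, edgeR adjusted p = 8.36e-87). TAS4 (AT3G25795) had 93 and 66 counts in janus-2, against 43 and 48 in Col-0 (log2 fold change 0.81, edgeR adjusted p = 0.00511), a call lost without janus-2 replicate 1 (0.60, adjusted p = 0.109). MYB113, a direct target, had 1 and 3 counts in janus-2, against 9 and 12 in Col-0, and was not tested.

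Precursor genes of the young miRNAs were mostly too low to compare. RefSeq names 69 of them, of which 55 are in the mRNA tables, 24 had no count in any library and 42 had at most 3 counts in every library. Of the 8 that were tested, 3 fell and 0 rose by edgeR, with 3 at an unadjusted p under 0.05, and DESeq2 called 2 lower and 0 higher. With 27.2% of all tested genes lower, 3 of 8 is near the background. MIR839 had 16 and 15 counts in janus-2, against 115 and 134 in Col-0 (log2 fold change -2.99, SE 0.41, edgeR adjusted p = 4.27e-21), close to the -3.05 of miR839-5p. MIR822 had 23 and 21 counts in janus-2, against 70 and 73 in Col-0 (log2 fold change -1.69, SE 0.45, edgeR adjusted p = 1.3e-06), beside -2.25 for miR822-5p. MIR775 had 14 and 14 counts in janus-2, against 31 and 34 in Col-0 (log2 fold change -1.20, SE 0.62, edgeR adjusted p = 0.0102), beside -0.12 for miR775. The call of MIR775 was lost without Col-0 replicate 1 (-1.16, adjusted p = 0.0608). MIR839 and MIR822 overlap other annotated genes, as do MIR824 and MIR863 below, and whether the counting used strand is not given in the sources used here.

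The other tested precursors were not called. MIR824 had 295 and 275 counts in janus-2, against 246 and 255 in Col-0 (log2 fold change 0.19). The rest had at most 30 counts in a library, with log2 fold changes of 0.85 for MIR863, 0.01 for MIR776, -0.45 for MIR830 and -0.50 for MIR779. That of MIR776 changed sign without janus-2 replicate 2 (-0.04) and without Col-0 replicate 1 (-0.23). MIR856, which was below the filter, had 0 and 0 counts in janus-2, against 9 and 10 in Col-0, and was at least 3.15-fold lower against 3 counts per library. Beside it, miR856 fell by 3.07 on the log2 scale.

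Several young hairpins lie inside longer genes by position, without regard to strand, so a hairpin may lie opposite to its containing gene. These genes were set beside their miRNAs as values without a test, since they were chosen after their values were seen. AT4G13495, a non-coding gene that contains MIR850 and overlaps MIR863, had 51.7 and 52.8 CPM in janus-2, against 21.7 and 21.0 CPM in Col-0 (log2 fold change 1.29), beside 1.01 for miR850. AT4G14500, which contains MIR852, had 60.2 and 57.8 CPM in janus-2, against 103.8 and 103.9 CPM in Col-0 (log2 fold change -0.82), beside 1.36 for miR852. NRT1.9, a nitrate transporter gene that contains MIR837, had 2.39 and 2.69 CPM in janus-2, against 4.74 and 5.62 CPM in Col-0 (log2 fold change -1.03), beside 1.58 for miR837-5p. At MIR838, DCL1 had -0.37, beside 1.46 for miR838. Of these loci, containing gene and miRNA lay on the same side of 0 at MIR850 and on opposite sides at MIR852, MIR837 and MIR838. AT1G21200, which contains MIR781a and MIR781b, had a log2 fold change of 0.04, beside 1.95 and 1.98 for the miRNAs. FC1, a ferrochelatase gene that contains MIR860, had one of 0.16, beside 1.12 for miR860. At MIR781a, MIR781b and MIR860 gene and miRNA were thus also on the same side of 0, with small values for the genes. The named loci are a part of the containing genes, and show no common direction.

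**Figure D4:**
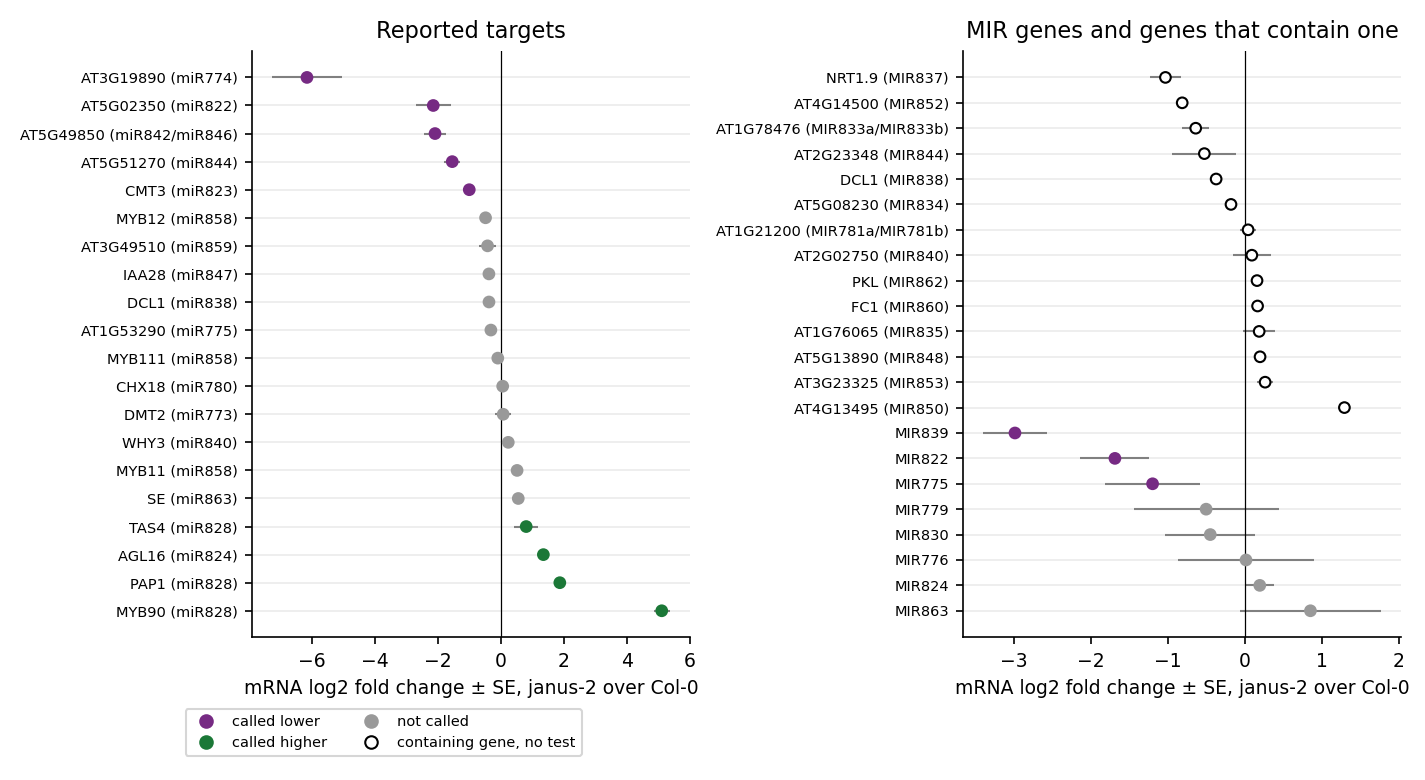
mRNA log2 fold change (janus-2 over Col-0, edgeR) with the SE of DESeq2 for the 20 tested reported targets (left, with their miRNA) and for 14 genes that contain a young hairpin and the 8 tested MIR genes (right). Filled points are coloured by call. Open points are the containing genes, which passed the filter on low counts and are drawn without their call. DCL1 is drawn in both panels. The targets run from -6.16 (AT3G19890) to 5.12 (MYB90), and MIR839, MIR822 and MIR775 are the called MIR genes.

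Of 12 genes for proteins that make or bind small RNAs, DCL3 (log2 fold change -1.68), AGO4 (-0.90) and AGO5 (-2.19) fell, 0 rose, and 9 were not called, beside 27.2% lower and 18.5% higher over all genes. DCL3 and AGO4 act in RNA-directed DNA methylation. DCL4, which cuts miR822 and miR839, had 2631 and 2375 counts in janus-2, against 2116 and 2666 in Col-0 (log2 fold change 0.08, edgeR adjusted p = 0.0948). Of the 12 genes, 11 had an unadjusted edgeR p under 0.05, so most of those not called differed beyond the spread between libraries. That spread, of 2 libraries per genotype with a common coefficient of variation of 2.26%, may understate the spread between plants. HYL1 (0.54), SE (0.56), TGH (0.54), HST (0.50) and AGO2 (0.43) were higher by less than the fold threshold. AGO1 (-0.55), DCL1 (-0.37) and HEN1 (-0.33) were lower by less than it. Both janus-2 libraries lay below both Col-0 libraries for 6 of the 12 genes and above them for 6, beside 46.6% and 44.2% of all tested genes.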

How the data were processed

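Total RNA of inflorescences was made into small RNA and mRNA libraries, 2 per genotype and kind. The authors deposited raw counts, 1 table per library, on 427 mature miRNAs or 28775 genes. The submitters' processing notes name Bowtie, HTSeq and the TAIR10 build; versions, settings and strandedness are not given in the sources used here. The 5 closing rows of each table name no gene and were left out. In the small RNA tables reads outside miRNAs were 96.4% to 97.1% of aligned reads, ambiguous reads 0.0652% to 0.0825%, and 3.53% to 4.63% of reads did not align. For mRNA the shares outside genes were 1.11% to 1.13%, and ambiguous reads 2.15% to 2.34%. Near-identical miRNAs take the same reads.

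All 4 libraries of an assay were fitted with edgeR 4.0.16 in R 4.3.3 (filterByExpr, TMM, estimateDisp, glmQLFit, glmQLFTest), with Benjamini-Hochberg adjustment over all 304 tested miRNAs or 22990 tested genes. The threshold on the adjusted p was 0.05 for miRNAs, and for genes a fold threshold of 1.5 was added. Log2 fold changes are edgeR's, janus-2 over Col-0, and SEs are those of DESeq2 1.42.0. CPM values are TMM-scaled and given per library (n = 2 per genotype). The common coefficient of variation was 25.5% for small RNA and 2.26% for mRNA. Intervals are exact 95% intervals that cover counting error only. In simulated counts with known changes of 4-fold, edgeR found 38 of 40 miRNAs (294 tested) and 196 of 200 genes (22809 tested). False calls were 1 and 4. The changes were placed only in features above a minimum mean count, and every feature was given the common coefficient of variation. These rates therefore do not describe smaller changes or entries with few counts.

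Entries named are those called, those with a mean of at least 100 CPM, their other arms and letters, and those with a reported target. Targets and marker lists are background knowledge. The members and lists were chosen with earlier results of these data known. RefSeq (TAIR10.1) gave symbols for 28009 genes and neighbouring genes. Since its build differs in name from that of the files, no coordinates are given. Alternatives changed the scaling, tool, filter, shared entries, fold threshold, the replicate number as a block, and the libraries (each left out once). Sequences of the miRNAs are not used here.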

Additional observations from a re-analysis of the deposited data

How the results depend on the processing

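Over 12 alternatives of the small RNA fit, 24 of the 34 called young miRNAs kept their call in every one that was run (13 lower and 11 higher), and 10 lost it in at least 1. The number lower ranged from 16 to 24 and the number higher from 13 to 18. The median log2 fold change of the young miRNAs was -0.3121 with DESeq2's size factors, -0.3131 with DESeq2, -0.4066 with table totals, -0.5555 with upper-quartile factors and -0.5892 with all aligned reads, and -0.3186 to -0.0992 with each library left out. The median of all tested miRNAs moved with it, to 0.0227, 0.0230, -0.0695, -0.2264 and -0.2326 under the same 5 alternatives, in that order. Upper-quartile factors gave 21 lower and 14 higher. Under DESeq2 the calls of miR826a, miR837-5p, miR838, miR846-5p, miR850, miR866-5p and the precursor MIR775 were lost. Without a filter those of miR781a, miR858a and miR858b were lost. In contrast, miR851-5p was called lower with upper-quartile factors, table totals, all aligned reads and DESeq2, and miR824-3p with all aligned reads (-0.93, adjusted p = 0.0395).

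Signs changed only for uncalled values near 0. With each library left out these ranged from -0.374 to 0.183 for miR775 (above 0 without Col-0 replicate 2), from -0.0115 to 0.1444 for CHX18 (below 0 without Col-0 replicate 1), from -0.0642 to 0.2096 for DMT2 (below 0 without janus-2 replicate 2) and from -0.2284 to 0.3488 for MIR776 (below 0 also without janus-2 replicate 2, at -0.0392). With upper-quartile factors CHX18 was at -0.0079 and MIR776 at -0.0547. The cause was not tested. With the adjusted p alone 10 targets were lower and 7 higher, beside 42.5% and 40.6% of all tested genes. A fit that leaves out 1 library takes the lone sample to vary like the other genotype.

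The labels give both genotypes the same replicate numbers and no shared batch or day, and deviations of same-numbered libraries had a correlation of -0.152 for small RNA and -0.0153 for mRNA. With a replicate block 18 young miRNAs were lower and 17 higher, and among mRNAs 5 targets were lower, 4 higher, and 3 MIR genes lower. With the numbers crossed, an alternative chosen after seeing the data, the block gave 18 lower and 17 higher young miRNAs.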

Other observations

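A few untested young miRNAs had counts that differed between the genotypes without reaching the filter. With 0 and 0 counts in janus-2, against 4 and 10 in Col-0, miR868-5p was at least 2.02-fold lower against 3 counts per library. Its other arm miR868-3p had 1 and 0 counts in janus-2, against 7 and 3 in Col-0, a ratio of Col-0 over janus-2 of 8.49 with a 95% counting interval from 1.21 to 368. With 0 and 0 counts in janus-2, against 2 and 5 in Col-0, miR832-5p was at least 1.01-fold lower. The fitted values of all 4 entries of miR841 lay between -0.9996 and -0.7614 on the log2 scale, and none of them was called.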
